A study of Mus musculus with 4 samples.

Results

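The mitochondrial ribosomal protein genes are the genes whose symbols begin with Mrpl (large subunit) or Mrps (small subunit) followed by a number. They were chosen by symbol alone, as spots annotated with a single gene symbol of that form. The rule uses no measured value, but it was set with earlier results of these data known. The rule found 68 genes, 44 Mrpl and 24 Mrps, on 136 spots, among 14386 genes on 32064 named spots in all. RefSeq lists 78 protein-coding mouse genes with symbols of this form, so 68 of them could be followed here.

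RNA came from CGR8, an established mouse embryonic stem cell line that grows without feeder cells. The cells were differentiated as embryoid bodies, round aggregates formed in hanging drops. Total RNA of day 3 embryoid bodies was hybridised with RNA of undifferentiated day 0 cells on 2 arrays, and total RNA of day 10 embryoid bodies with day 0 RNA on another 2, each array having 2 channels. The labels name no treatment or genetic change, and the day 0 state is the reference of every array. In each pair the second array is labelled a technical replicate, so each day is 1 RNA pair, the SD of its arrays is technical, and no p-value can be given. All cells belong to 1 line, and an embryoid body mixes cell types, so in these bulk samples fewer cells of a type and less RNA per cell cannot be told apart.

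Mitochondria carry ribosomes of their own, which translate the few messages of mitochondrial DNA, nearly all of them for subunits of the respiratory chain. All proteins of these ribosomes are encoded in the nucleus, made in the cytosol and imported. Some descend from bacterial ribosomal proteins, and others exist only in mitochondria. Undifferentiated mouse stem cells rely much on glycolysis, and mitochondria mature as cells differentiate, which makes this gene family a natural one to follow in embryoid bodies.

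The promoters of the members are shown first for the 6 genes that were beyond 2-fold on all arrays of a comparison, described below, and for which a RefSeq window was at hand. RefSeq windows (build GRCm38.p6) run from 250 bases before a gene's start to 50 bases after its first base and were matched for 62 of the 68 members, 2 of which have several windows. The sequences are the 150 bases before the start, read 5′ to 3′ along the gene. Capitals mark matches, on either strand, to the cores of binding motifs of regulators of mitochondrial genes: GCGC, any 2 bases and GCGC again for NRF1, CCGGAAG for the ETS family with GABPA, and AAGATGG for YY1, together with the E-box CACGTG. None of these motifs lies within another.
Mrps36, chr13:100744660-100744809, minus strand: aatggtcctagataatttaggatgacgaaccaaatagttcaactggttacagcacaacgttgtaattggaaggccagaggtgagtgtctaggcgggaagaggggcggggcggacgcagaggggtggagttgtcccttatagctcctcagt
Mrps5, chr2:127587276-127587425, plus strand: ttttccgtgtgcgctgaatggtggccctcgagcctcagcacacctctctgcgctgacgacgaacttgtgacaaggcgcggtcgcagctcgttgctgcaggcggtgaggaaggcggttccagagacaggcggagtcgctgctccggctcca
Mrpl41, chr2:24975099-24975248, minus strand: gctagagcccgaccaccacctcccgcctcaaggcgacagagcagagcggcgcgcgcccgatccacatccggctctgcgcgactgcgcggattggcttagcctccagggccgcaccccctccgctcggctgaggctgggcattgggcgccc
Mrpl45, chr11:97315566-97315715, plus strand: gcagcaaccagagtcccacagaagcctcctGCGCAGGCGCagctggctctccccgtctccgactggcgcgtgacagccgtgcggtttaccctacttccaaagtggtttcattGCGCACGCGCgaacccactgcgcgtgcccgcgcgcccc
Mrps9, chr1:42851083-42851232, plus strand: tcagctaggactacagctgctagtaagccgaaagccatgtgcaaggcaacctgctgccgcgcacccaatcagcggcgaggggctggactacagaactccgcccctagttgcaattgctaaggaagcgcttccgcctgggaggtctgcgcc
Mrps18a, chr17:46110854-46111003, plus strand: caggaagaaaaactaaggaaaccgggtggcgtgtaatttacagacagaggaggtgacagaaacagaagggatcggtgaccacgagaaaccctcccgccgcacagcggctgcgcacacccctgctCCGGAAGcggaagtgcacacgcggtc
In these stretches Mrpl45 has NRF1 cores beginning at bases -120 and -38, and Mrps18a an ETS core beginning at -26. Over the full windows, Mrpl45 has a further NRF1 core from base 16 on, Mrps9 has an NRF1 core that begins at base -5 and runs across the start, and Mrps18a a YY1 core from base 12 on. No core was found in the windows of Mrps36, Mrps5 and Mrpl41, which says only that these letters are not in them.

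Across the 62 members with a window, 21 (33.9%) held an ETS core, against 14.7% of 11311 array genes with a window and 9.93% of all 27025 genes. An NRF1 core was in 13 members (21.0%, against 11.1% and 7.0%), and a YY1 core in 12 (19.4%, against 7.80% and 7.28%). The E-box was in 4 members (6.45%), below the 10.3% of array genes and 8.09% of all genes. Another gene began on the opposite strand within 500 bases upstream of 19 members (30.6%), against 14.7% and 10.9%. The windows of members were about as rich in G and C as those of other array genes, with medians of 57.8% and 58.0%, and richer than the 52.8% of all genes. These shares describe the sequences and were not tested.

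**Figure D1:**
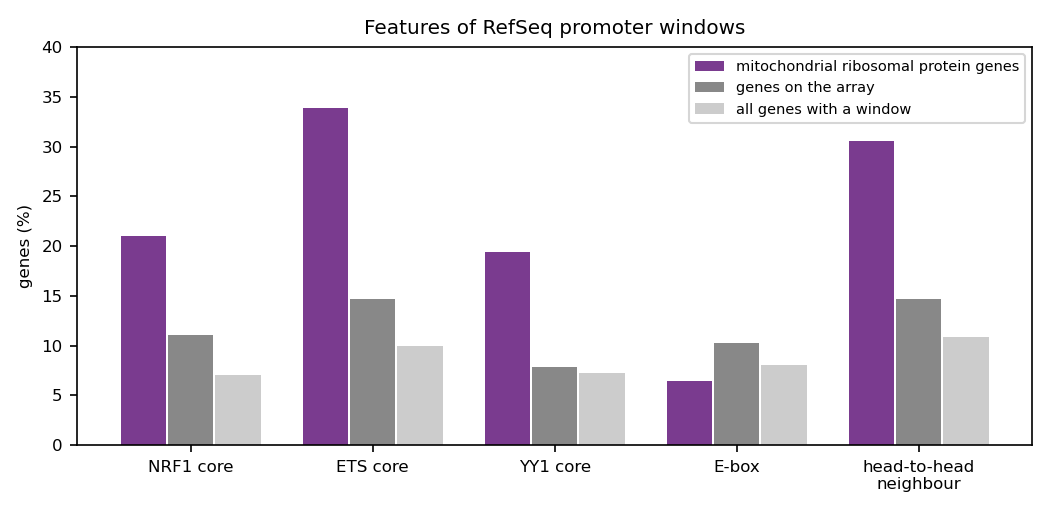
Share of genes (y axis, percent) whose RefSeq window holds each motif core, or that have another gene starting on the opposite strand within 500 bases upstream (x axis). Purple bars stand for the 62 mitochondrial ribosomal protein genes, dark grey for 11311 array genes and light grey for all 27025 genes; the purple bars are the tallest for every feature but the E-box, where they stand at 6.45%.

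The deposited value of a spot is the log2 ratio of the 2 channels of an array. The sources used here do not give the numerator. Values are therefore said to lie on the positive or the negative side, with no statement of which day was higher. Arrays held values for 37471 to 41386 of 46128 spots, and their number limits the precision. Of 9 stem cell markers measured at day 3, 9 had a mean below 0, from -2.71 for Dppa5a to -0.29 for Utf1, beside 6784 of all 13707 genes. At day 10 6 of 8 did, beside 6698 of all 13199 genes. The 2 markers above 0 at day 10 were Fgf4, with 1.51 and 0.99, and Utf1, with 0.87 and 0.22. These markers were not used to set a direction. Each array was centred on its median, the spots of a gene were averaged, and a gene is called beyond 2-fold where both arrays of its day reach a log2 ratio of 1 or more in size with the same sign.

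Every member had 2 spots, side by side on the array and of the same transcript accession, and 494 of 544 possible spot readings were present. All 4 arrays gave a value for 64 members. Mrpl21 and Mrpl24 lacked the first day 10 array, Mrps9 the second day 10 array, and Mrpl23 the first day 3 array. On single arrays the members' median lay between -0.01 and 0.09, and the highest and lowest member values were 3.22 for Mrps16 on the first day 10 array and -3.60 for Mrps18a on the first day 3 array.

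**Figure D2:**
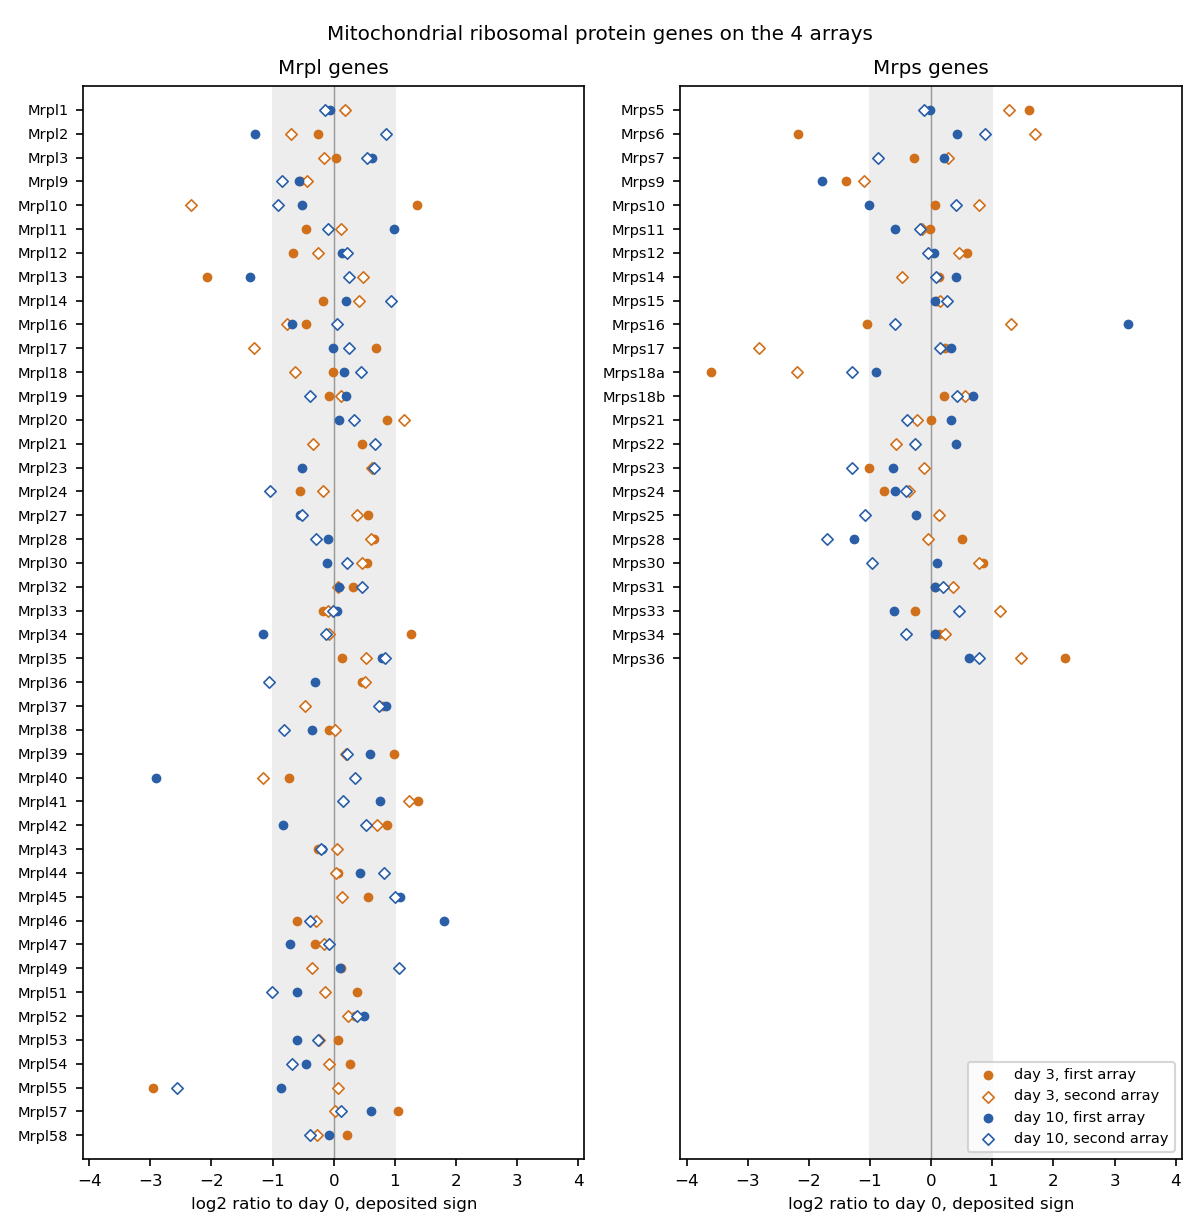
Log2 ratio of the 2 channels (x axis) of each of the 68 genes (y axis) on each array. The axis label reads ratio to day 0 with the deposited sign, but the numerator is not given. Day 3 is in orange and day 10 in blue, with filled circles for the first and open diamonds for the second array. The grey band is the range within 2-fold, and most points lie in it. Inside on all 4 arrays were 38 of 64 genes (59.4%, beside 56.0% of all genes), while Mrps18a and Mrps36 stand out at day 3 on opposite sides.

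At day 3, 5 of 67 measured members were beyond 2-fold on both arrays, 3 on the positive side (Mrps36, Mrps5 and Mrpl41) and 2 on the negative side (Mrps18a and Mrps9). That is 7.46% of the members, beside 2.80% of all 13707 genes measured at day 3 (1.77% positive and 1.03% negative). With each gene read from the spot whose arrays differed least, the shares were 4.55% of members and 4.57% of all genes, so the higher share of members depends on how spots are combined. The family as a whole was centred near the other genes: the median log2 ratio was 0.05 over members and 0.01 over all genes, and the middle 50% of members lay between -0.31 and 0.37, against -0.33 and 0.36 for all genes. The called genes thus stood at both ends of a family whose middle 50% lay where that of all genes lay. Both arrays were on 1 side of 0 for 42 of 67 members, 25 positive and 17 negative, beside 64.7% of all genes.

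Mrps18a had the lowest ratio of the family. It encodes 1 of the 3 mammalian relatives of bacterial S18 and, despite its name, sits in the large subunit of the mammalian mitochondrial ribosome. Its log2 ratios were -3.60 and -2.20 on the day 3 arrays, a mean of -2.90 ± 0.99 (the SD after a mean is always over the technical arrays), which is a 7.45-fold ratio. On the day 10 arrays it had -0.89 and -1.30 (-1.10 ± 0.29), so it lay on the negative side on all 4 arrays but was within 2-fold on the first day 10 array. Its 8 spot readings were all negative and ran from -3.85 to -0.56. The other S18 relative on the array, Mrps18b, was on the positive side on all 4 arrays, with 0.21 and 0.56 at day 3 and 0.69 and 0.43 at day 10.

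Mrps9, the relative of bacterial S9, a protein of the small subunit head, was the other member called on the negative side. It had -1.40 and -1.09 at day 3 (-1.24 ± 0.22) and -1.79 on the first day 10 array, the only day 10 array that measured it. Its 6 spot readings ran from -1.93 to -0.98, so the negative side was seen in every reading of the gene.

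Mrps36 had the highest day 3 mean, with 2.18 and 1.48 (1.83 ± 0.50, a 3.55-fold ratio). Although named as a small subunit protein, its product is known in yeast and mammals as a subunit of the 2-oxoglutarate dehydrogenase complex of the citric acid cycle. At day 10 it had 0.61 and 0.79 (0.70 ± 0.12), on the same side and within 2-fold. RefSeq lists 3 pseudogenes named after Mrps36, copies that its spots may also bind, so its values are uncertain. Mrpl27 and Mrpl23, with 1 such pseudogene each, share this limit.

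Mrps5, the relative of bacterial S5, which lines the path of the messenger RNA into the small subunit, had 1.60 and 1.27 at day 3 (1.43 ± 0.23, a 2.70-fold ratio). Its 4 spot readings at day 3 lay close together, between 1.27 and 1.63. At day 10 the gene had -0.02 and -0.12 (-0.07 ± 0.07), so that its days did not overlap and its day 10 arrays were close to 0.

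Mrpl41, a large subunit protein found only in mitochondrial ribosomes, had 1.37 and 1.23 at day 3 (1.30 ± 0.10) and 0.76 and 0.15 at day 10 (0.46 ± 0.43). It stayed on the positive side on all 4 arrays, and its 4 day 3 spot readings ran from 0.99 to 1.75. Mrpl20, which binds ribosomal RNA early in the assembly of the bacterial large subunit, had the next mean of a large subunit protein at day 3, with 0.87 and 1.15 (1.01 ± 0.19), and was not called because its first array was inside the limit. Mrps30, another Mrps gene whose protein sits in the large subunit, followed with 0.85 and 0.79 (0.82 ± 0.04).

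**Figure D3:**
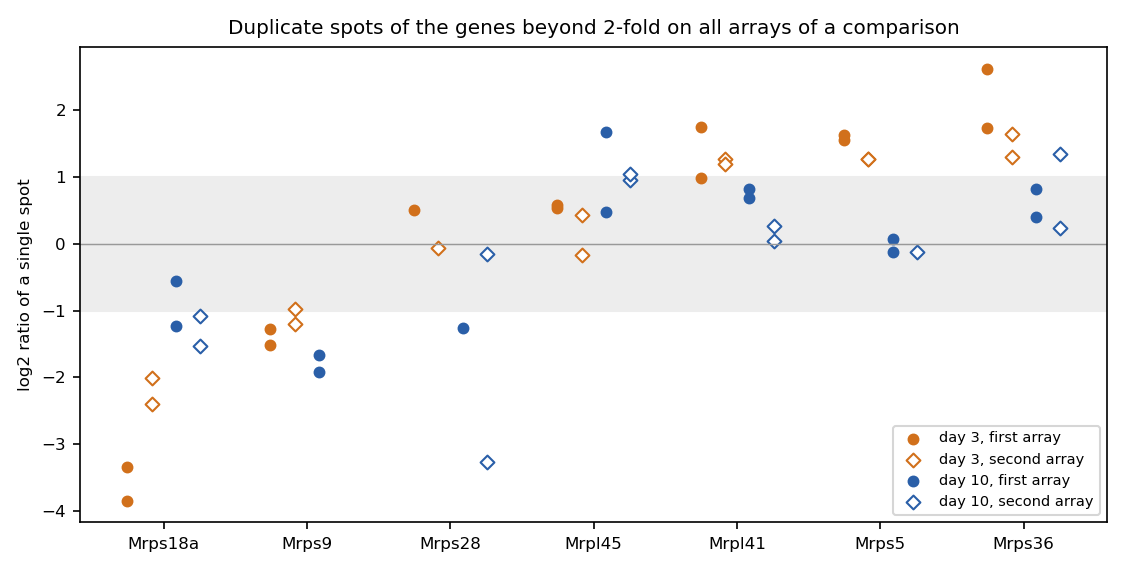
Log2 ratio of each single spot (y axis) for the 7 genes beyond 2-fold on all arrays of a comparison (x axis), coloured and marked by array as in the plot of all members; the grey band is the range within 2-fold. The day 3 spots of Mrps5 lie between 1.27 and 1.63, while the second day 10 array of Mrps28 has spots at -3.27 and -0.15.

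Some members gave contradictory readings at day 3. Mrpl10, Mrps6 and Mrps16 were beyond 2-fold on opposite sides of the technical arrays, 3 of 67 members beside 0.744% of all genes. Mrpl10, which anchors the stalk that recruits translation factors, had 1.36 and -2.34. Mrps6, a relative of bacterial S6, had -2.17 and 1.70, and Mrps16, a relative of S16, -1.05 and 1.31. Their means of -0.49, -0.23 and 0.13 therefore describe no level, and neither do the low means of Mrpl55 (-2.96 and 0.06) and Mrps17 (0.23 and -2.81), each of which rests on 1 array. Mrpl55 is particular to mitochondria and had a single spot reading on 3 of its arrays, and Mrps17 is a relative of bacterial S17. Mrpl40, another mitochondrial large subunit protein, had -0.73 and -1.16 at day 3.

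The disagreement of arrays went with brightness. A lower bound of a spot's brightness can be recovered from the deposited ratios where they are ratios of whole numbers; values that are not such ratios count as bright. By this measure 44 of the 68 members were in the brighter 50% of all genes. In these, the technical arrays differed by a median of 0.29 (day 3) and 0.33 (day 10), whereas dimmer members differed by 0.79 and 0.68. Across genes, which are not independent replicates and share arrays and labelling, Pearson r between the technical arrays was 0.71 over 44 brighter and -0.17 over 23 dimmer members at day 3, and 0.51 over 42 and 0.02 over 23 at day 10. Over all members r was 0.22 at day 3 and 0.21 at day 10. The contradictory genes Mrpl10, Mrps6 and Mrps16 had brightness percentiles of 8.79, 22.6 and 12.6, whereas Mrps18a had 81.4, Mrps9 95.4, Mrps5 74.3 and Mrpl41 65.4. Mrps36 had 47.9 and Mrpl20 5.41. Counted over the brighter 50% alone, 4 of 44 members were called at day 3, beside 3.28% of the 6987 brighter genes. At day 10 none of 42 was, beside 3.43%, and between days 1 of 42, beside 3.66%.

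**Figure D4:**
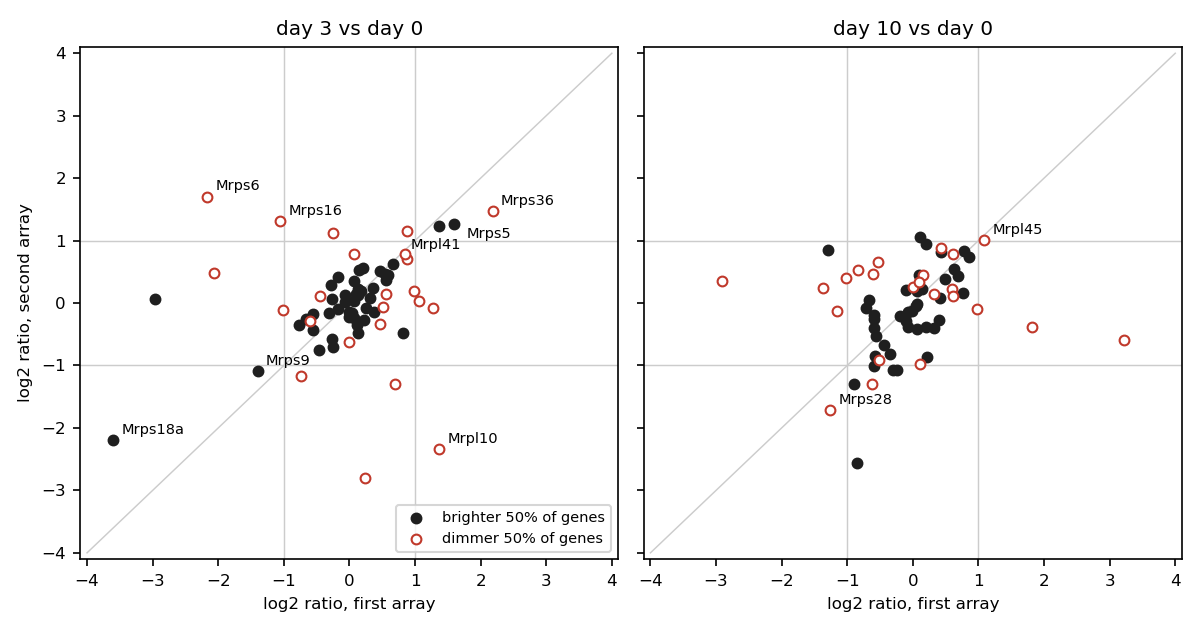
Log2 ratio on the first (x axis) against the second (y axis) technical array of each day, 1 point per gene, filled for the brighter 50% of all genes and open red for the dimmer 50%; grey lines mark 2-fold and equality. Filled points follow the diagonal more closely than open ones (r of 0.71 against -0.17 at day 3), and the named genes are those beyond 2-fold on both arrays, on the same or on opposite sides; Mrpl41 is named under its point.

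At day 10, 2 of 65 measured members were beyond 2-fold on both arrays, Mrpl45 on the positive and Mrps28 on the negative side. This is 3.08% of the members, beside 3.54% of all 13199 genes (2.15% positive and 1.39% negative), a share near the background. No member was beyond 2-fold on opposite sides, beside 1.48% of all genes. The median over members was -0.07, with the middle 50% between -0.44 and 0.36, against -0.01 and a range from -0.38 to 0.40 over all genes. Both arrays were on 1 side of 0 for 44 of 65 members, 22 on each side, beside 60.8% of all genes.

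Mrpl45, which lies at the exit of the nascent chain and tethers the ribosome to the inner membrane, had 1.08 and 1.002 at day 10 (1.04 ± 0.06) after 0.56 and 0.14 at day 3 (0.35 ± 0.30). It was positive on all 4 arrays, but it was just past the limit, was dim with a brightness percentile of 13.6, and had 0.48 and 1.69 on its spots of the first day 10 array. With no centring, its mean was 1.01 and it was no longer called. Mrps28, a small subunit protein, had -1.26 and -1.71 at day 10 (-1.48 ± 0.32) and 0.51 and -0.06 at day 3. Its value on the second day 10 array is the mean of spots at -3.27 and -0.15, and 1 spot gave each of its other values.

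Further members stood toward either end at day 10 without passing the limit on both arrays. Mrpl35, a relative of bacterial L35, had 0.78 and 0.83 (0.81 ± 0.03), and Mrpl37, a mitochondrial protein of the large subunit, 0.85 and 0.74 (0.80 ± 0.08). In both genes the technical arrays lay close together, but their duplicate spots did not. Mrpl35 had spots at 0.23 and 1.335 on the first day 10 array. Mrpl37 had spots at 1.16 and 0.32 on the second, and a single spot gave its value on the first. On the negative side, Mrps23, a mitochondrial small subunit protein, had -0.62 and -1.30 (-0.96 ± 0.48). Mrpl55 had -0.86 and -2.57, both on the negative side. Mrpl40 had -2.91 and 0.35, Mrps16 had 3.22 and -0.59 and Mrpl46 1.81 and -0.38, so that 1 array decided the mean of each of these 3 genes.

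Of the 64 members with 4 values, 13 were on the positive side on every array (20.3%, beside 12.1% of 12654 genes) and 6 on the negative side on every array (9.38%, beside 14.9%). The positive genes included Mrpl41, Mrpl45, Mrps36, Mrpl35, Mrpl52, Mrps18b and Mrps31, and the negative ones were Mrpl9, Mrpl47, Mrps11, Mrps18a, Mrps23 and Mrps24. All arrays share the day 0 state in 1 channel, so the days are not independent here. Within 0.5 of 0 on all 4 arrays lay 12 members (18.8%, beside 16.0% of all genes), some of them also among the positive genes. Among these were Mrps15, with 0.09, 0.15, 0.06 and 0.26, and Mrpl33, with -0.17, -0.10, 0.06 and -0.01. Another was Mrps31, a small subunit protein gene counted as bright (1 of 8 values a whole-number ratio), with 0.07, 0.36, 0.07 and 0.19. Those of Mrps15 partly average spots on opposite sides. Its spots had 0.47 and -0.18 on the second day 3 array. On the day 10 arrays they had -0.43 and 0.55, then -0.24 and 0.76.

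Day 10 was also set against day 3 by subtracting the ratios, with day 0 RNA assumed to be the same throughout, an assumption that no label states. A gene was called where each day 10 array differed from each day 3 array by 1 or more in 1 direction. This held for 2 of 64 members (3.12%), both on the negative side, beside 3.54% of all 12654 genes (1.82% positive and 1.72% negative). Mrps28 differed by -1.71 ± 0.52 and Mrps5 by -1.51 ± 0.24. The 2 day 3 arrays of Mrps28 were read from different spots. Its second spot had -0.06 on the second day 3 array and -0.15 on the second day 10 array. The difference of Mrps28 therefore rests on its first spot. The largest mean differences on the positive side were those of Mrps18a, 1.80 ± 1.03, and Mrps17, 1.53 ± 2.15, of which the second rests on 1 day 3 array. Requiring both arrays of a day mattered for these counts. On a single array, 13 members were beyond 2-fold at day 3, beside 12.8% and 14.4% of all genes, and 10 at day 10, beside 16.2% and 20.4%. Between days, leaving out 1 array gave 6 to 9 members, beside 10.0%, 11.3%, 11.9% and 15.4% of all genes. Mrps30 had -1.25 ± 0.76, Mrpl34 -1.24 ± 1.20 and Mrpl36, a relative of the small zinc-binding protein L36, -1.17 ± 0.54, none of them called.

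The median difference was -0.17, against -0.01 over all genes, and 22 of 64 members had both day 3 arrays above both day 10 arrays (34.4%, beside 22.7% of all genes), while 9 had both below (14.1%, beside 20.7%). Besides the genes already named, members counted as bright showed this order with small SDs. Mrpl27, a relative of bacterial L27 at the peptidyl transferase centre, had 0.56 and 0.38 at day 3. At day 10 it had -0.56 and -0.52, a difference of -1.01 ± 0.13. Mrps12, the relative of the decoding protein S12, had 0.59 and 0.45, then 0.05 and -0.05 (difference -0.52 ± 0.12). In each of these genes 0 of 8 values were whole-number ratios, so they count as bright by that rule alone. Mrpl28, at a brightness percentile of only 52.3, had 0.66 and 0.62, then -0.10 and -0.28. Its spots disagreed on the first day 10 array, at 0.59 and -0.79. The first of these spots had 0.15 and 0.47 at day 3, so it did not show the order. The opposite order, day 3 below day 10, was seen for Mrpl3, a relative of L3, with 0.03 and -0.17 and then 0.62 and 0.55. It was also seen for Mrpl44, which resembles ribonuclease III, with 0.07 and 0.03 and then 0.42 and 0.82. The Mrpl44 spots lay apart, at 0.06 and 1.57 on the second day 10 array. In 6 members the day 3 arrays were above 0 and the day 10 arrays below it, beside 7.68% of all genes, and in 2 the reverse held, beside 6.27%. Mrpl27, Mrpl28, Mrps12, Mrpl3 and Mrpl44 were picked after their values were seen. Without the second day 3 array the median difference was -0.035 and without the second day 10 array -0.067, so its size depends on those arrays.

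The cytosolic ribosomal protein genes, which encode the ribosomes of the cytoplasm, had other values in the same fit. Of 69 measured at day 3, 31 were beyond 2-fold on the positive side (beside 1.77% of all genes) and none on the negative side (beside 1.03%). Their day 3 median was 0.79, beside 0.05 for the mitochondrial family. At day 10 their median was -0.29 beside -0.07, and the difference between days -1.31 beside -0.17. Of 66 cytosolic genes, 44 had both day 3 arrays above both day 10 arrays (66.7%), beside 34.4% of the mitochondrial members and 22.7% of all genes. The difference between the families was not tested, since each day is 1 RNA pair.

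**Figure D5:**
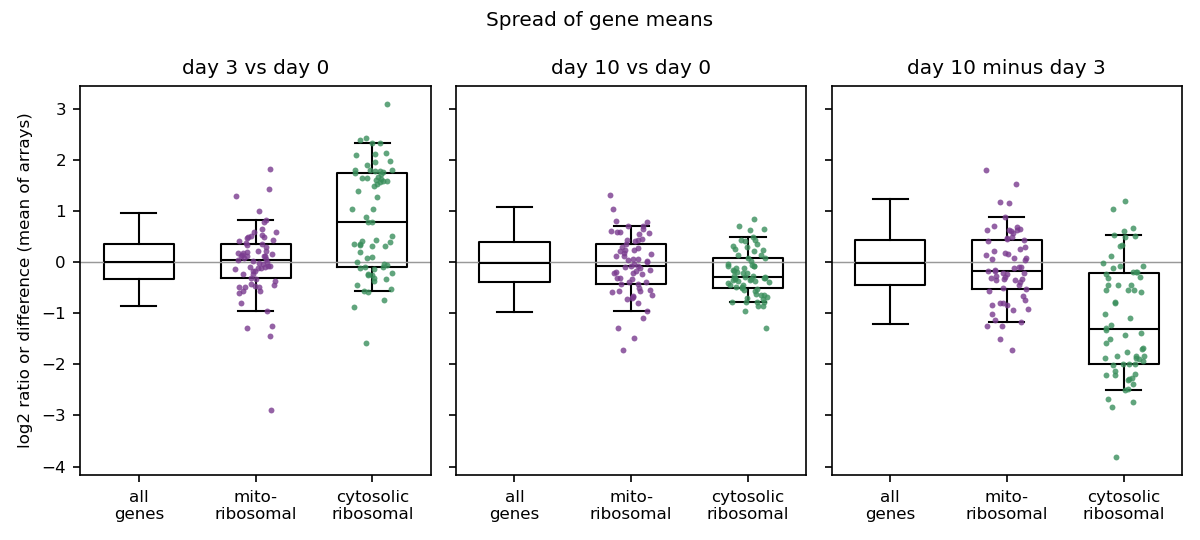
Mean log2 ratio or difference per gene (y axis) for all genes, mitochondrial ribosomal protein genes and cytosolic ribosomal protein genes (x axis), in each comparison. Boxes span the middle 50% with a line at the median, whiskers reach the 5th and 95th percentiles, and points are genes, jittered sideways and shown for both ribosomal families; the mitochondrial medians are 0.05, -0.07 and -0.17 and the cytosolic ones 0.79, -0.29 and -1.31.

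The members were also split by subunit and by an origin presumed from their symbols. The 46 large subunit genes (Mrpl genes with Mrps18a and Mrps30) had a median of 0.03 at day 3 and -0.10 at day 10, and the 22 small subunit genes 0.13 and -0.04. Of the large subunit genes 2 of 45 were called at day 3, and of the small subunit genes, which by symbol include Mrps36, 3 of 22, beside 2.80% of all genes. With 1 array left out, the large subunit median was 0.026 or 0.14 at day 3 and -0.07 or 0.085 at day 10. That of the small subunit was 0.069 or 0.18 at day 3 and -0.12 or 0.063 at day 10, so the day 10 medians had no settled side. Members with a bacterial relative had medians of 0.0031 at day 3 (39 genes) and -0.0028 at day 10 (37 genes), and the 28 members particular to mitochondria 0.10 and -0.16. Between days, 20 of those 28 had a mean difference below 0, with a median of -0.23, and 16 of 36 members with a bacterial relative did, with a median of 0.08. Of all 12654 genes, 6423 had a mean difference below 0. With an array left out, the median difference of the mitochondrial group ran from -0.23 to -0.10 and that of the bacterial group from -0.06 to 0.0095, and the difference between the groups was not tested.

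Genes that work with the mitochondrial ribosome were read in the same way, from lists of ribosome proteins under other names, assembly factors, translation factors, aminoacyl-tRNA synthetases and regulators of mitochondrial transcription. The ribosome proteins Dap3, Chchd1 and Ptcd3, which belong to the small subunit, were not called at either day. Dap3, which binds GTP, had -0.84 and 0.50 at day 3 and -0.50 and -0.59 at day 10. Chchd1 had -0.19 and 0.77 at day 3 and -1.55 and 1.21 at day 10, on opposite sides. Ptcd3 had -0.41 and 0.14, then 0.35 and 0.29.

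None of 14 assembly factors, 6 translation factors or 9 synthetases was called at day 3, and none of 13, 6 and 8 at day 10, beside 2.80% and 3.54% of all genes, shares at which lists this short may hold no called gene. Medians of these lists lay between 0.03 and 0.14 at day 3 and between 0.09 and 0.24 at day 10. Mettl15, a methyltransferase of the small subunit RNA, had the highest day 10 mean of the assembly factors, with 1.78 and 0.73, and Mrm2, a methyltransferase of the large subunit RNA, the lowest, with -1.44 and 0.10. At day 3 the ends of that list were Rbfa, with 1.18 and 0.15, and Mterf4, with -0.42 and -0.30. Gfm2, which recycles ribosomes after termination, had 1.80 and 0.67 at day 10, and its elongating relative Gfm1 0.48 and 1.10, after 0.85 and 0.28 at day 3. Taco1, an activator of cytochrome oxidase subunit translation, had -0.41 and -0.10, then -0.96 and -0.15. Among the synthetases, Tars2, which charges the threonine tRNA, had -0.93 and -1.02 at day 10 (-0.98 ± 0.06) and was within the limit on 1 array. Fars2, for phenylalanine, had 0.38 and 0.89, then 0.72 and 0.99, and Ears2, for glutamate, -0.65 and -0.12, then 0.01 and 2.25.

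Of these lists, that of regulators of mitochondrial gene expression held the called genes, both at day 3. Nrf1, the factor whose motif core was searched above, had 1.38 and 1.33 at day 3 (1.35 ± 0.03) and 0.32 on the only day 10 array that measured it, but its brightness percentile was 1.06, near the bottom of the array. Tfb2m, which the mitochondrial RNA polymerase needs to start transcription, had -1.001 and -1.02 at day 3 (-1.01 ± 0.02) at a percentile of 86.5, and -0.45 and -0.23 at day 10. After removal of each array's trend with brightness Tfb2m had -0.97 and was not called. These were 2 of 11 genes of that list at day 3, beside 2.80% of all genes, and at day 10 none of 10 was called, beside 3.54%. Esrra, a nuclear receptor that drives mitochondrial genes, had 0.43, 0.40, 0.48 and 0.82 on the 4 arrays, and the coactivator gene Pprc1 had 0.19, -0.87, -1.61 and -0.68. Gabpa, whose protein binds the ETS core, had 0.29 and -0.68 at day 3 and -1.25 and 1.26 at day 10, with opposite signs in both pairs.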

How the data were processed

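The values that the authors deposited were read as log2 ratios of the channels. Base 2 was taken because, among 5000 values of the first day 3 array, 5.86% then came out as simple whole-number ratios (denominator at most 100, within 5e-05), and 0.68% in base e or 10. The sources used here do not give the scanner, the background and dye treatment, the numerator or why values are missing.

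Spots were named by the platform's annotation, with symbols checked by Entrez ID in RefSeq (GRCm38.p6), which changed 0. Of the spots, 32544 had 1 symbol, 588 several and 12996 none. Accessions spotted 96 times whose Entrez IDs are no mouse genes (480 spots, 5 accessions) were taken as controls. The median of the remaining spots was subtracted on each array before the spots of a gene were averaged. Mrpl1 to Mrpl36, Mrps symbols up to Mrps21, and Mrps28 were taken as having a bacterial relative, and the others, Mrps36 among them, as particular to mitochondria. This split goes by symbol and was not checked gene by gene, so it may misplace single genes. The steps were tested on simulated data.

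To gauge brightness, each value was written as the ratio of the smallest whole numbers that give its 9 decimals. The log2 of their geometric mean was taken, as a median over a gene's readings. Numbers up to 10000 sufficed for 59.3% to 61.9% of the values, and for 1.56% or less once a random shift was added.

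Members, lists and motifs were chosen with earlier results of these data known. Genes were named by rule: those called, those beyond 2-fold on opposite sides, and the 5 highest and 5 lowest means of each comparison; in other lists, called genes and the highest and lowest mean. Since every member has 2 spots, the clause on members with most spots named none. Members named otherwise were chosen after their values were seen. Alternatives changed the centring, spread, limit, spot summary, missing values and brightness, and left out each array. The software was numpy 2.4.6, pandas 2.3.3 and matplotlib 3.10.9 under Python 3.11.15.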

Additional observations from a re-analysis of the deposited data

Results flagged for a closer look

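Of the 64 members with 4 values, 6 had both day 3 arrays above 0 and both day 10 arrays below it (beside 7.68% of all genes), and 2 the reverse (beside 6.27%); the difference between days was not tested for any of them. Mrps5 had 1.60 and 1.27 at day 3 and -0.02 and -0.12 at day 10, a difference of -1.51. Mrpl36 had 0.46 and 0.51, then -0.31 and -1.07, a difference of -1.17. Mrpl27 differed by -1.01 and Mrpl28 by -0.83, with the values given above. Mrps25, a small subunit protein particular to mitochondria, had 0.14 on both day 3 arrays, then -0.25 and -1.07, a difference of -0.80. Its spots disagreed on the first day 3 array, at -0.12 and 0.39, and on the first day 10 array, at 0.05 and -0.55. Mrpl1, a relative of bacterial L1, had 0.18 and 0.19, then -0.07 and -0.14, a difference of -0.29. Its spots had 0.07 and -0.21 on the first day 10 array. The reverse was seen in Mrpl12, a stalk protein, with -0.66 and -0.26, then 0.14 and 0.22, a difference of 0.64. On the second day 10 array its spots had -0.14 and 0.58. The reverse was also seen in Mrpl18, with -0.01 and -0.63, then 0.16 and 0.45, a difference of 0.63. Its spots had -0.67 and 0.65 on the first day 3 array, and 1 spot gave each of its other values. Among the other genes named, Ears2 had -0.65 and -0.12, then 0.01 and 2.25, a difference of 1.51.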

How the results depend on the processing

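No paired analysis was possible because each day is 1 RNA pair and no result comes from a test. With a call resting on 1 array of a day, 13 members were called at day 3 whichever array was left out (beside 12.8% and 14.4% of all genes) and 10 at day 10 (beside 16.2% and 20.4%), and 6 to 9 between days (beside 10.0% to 15.4%). With an array left out, the median ran from 0.05 to 0.09 at day 3, from -0.014 to 0.023 at day 10 and from -0.21 to -0.035 between days. The 1.5-fold limit gave 10, 9 and 8 members at day 3, at day 10 and between days (all genes 11.7%, 14.0% and 10.3%). The 4-fold limit gave 1, 0 and 0 (0.175%, 0.22% and 0.356%), and the limit on the mean alone 8, 6 and 11 (7.97%, 10.6% and 16.2%). Read as single spots, 8 of 115 member spots were called at day 3 and 4 of 112 at day 10. Those shares were 6.96% and 3.57%, beside 3.81% and 4.86% of all spots measured, and the day 10 median was -0.025. The spot with the smallest array difference gave 3 at day 3 and a day 10 median of -0.12, and at day 3 the members' share of 4.55% was then that of all genes, 4.57%. At day 10, 1 member was called with no centring, with a common spread and with the brightness trend removed (3.47%, 2.64% and 3.36%), and none among the brighter 50% of genes (3.43%), where 1 was called between days (3.66%). Spots with values on all 4 arrays gave 1 between days (3.93%) and a day 10 median of -0.021, and a common spread a median difference of -0.10. No called gene changed sign under any setting run. Mrps18a was called under all 13 settings, down to a 4-fold limit. Mrps5, Mrps28 and Mrps36 lost the call under the 4-fold limit alone, and Mrpl41 and Mrps9 also with the spot of smallest array difference. Fewer settings measured Mrps28, 11 at day 10 against 13 for Mrps5 at day 3. It had no spot with values on all 4 arrays and a brightness percentile of 28.8. The settings that need such spots or brighter genes therefore did not measure it. Mrpl45 was called under 7 of 12 settings. The cause of these changes was not tested. Technical arrays differed by a median of 0.79 in dim members at day 3, beside 0.29 in brighter members.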

Other observations

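Mrpl46 and Mrps11 stand head to head on chromosome 7, with 41 bases between their starts, shown here because both genes of the pair are members. Read along Mrps11 (chr7:78783090-78783130, plus strand, GRCm38.p6), the stretch is below and holds none of the 4 motif cores.
Between Mrpl46 and Mrps11: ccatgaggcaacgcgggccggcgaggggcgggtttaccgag
The ratios of the pair were not alike on every array. At day 3 Mrps11 had -0.01 and -0.14 and Mrpl46 -0.60 and -0.29. At day 10 Mrps11 had -0.59 and -0.19 and Mrpl46 1.81 and -0.38, so the first day 10 array had them on opposite sides and the second on the same side. Mrps11 had a brightness percentile of 91.4 and Mrpl46 of 31.6, but 0 of 8 values of Mrps11 were whole-number ratios.

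Other members have a head-to-head neighbour on the array. Mrps12 starts 147 bases from Sars2, the mitochondrial serine tRNA synthetase gene, with day 3 means of 0.52 and 0.16 and day 10 means of -0.0028 and 0.12. Mrpl49 starts 192 bases from Fau, a gene of the cytosolic ribosome, which had 1.34 and 1.46 at day 3 where Mrpl49 had 0.11 and -0.35. Mrpl30 starts 66 bases from Mitd1, with day 3 means of 0.50 and 0.66 and day 10 means of 0.05 and 0.65. These pairs were chosen after their values were seen.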
